A study of Mus musculus with 10 samples.

Results

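The insulin-like growth factor (IGF) binding proteins were followed through the transcripts of Igfbp2, Igfbp3, Igfbp4, Igfbp5, Igfbp6 and Igfbp7, which were chosen by name. They are 6 of the 48476 genes of the deposited table. All 6 passed the filter on low counts, as did 10977 genes in all. Mouse embryonic fibroblasts (MEFs) from E13.5 embryos of the CBA/CaJ X C57BL/6J cross carried an Oct4-GFP reporter and received retroviral Oct4, Klf4 and Sox2 (OKS) in both arms, and were kept in iCD1 medium. One arm also received FoxO6, a forkhead transcription factor that acts downstream of insulin signalling, and the control arm received the red fluorescent protein DsRed (DR in the labels). Each arm gave 1 bulk RNA-seq library at days 0, 1, 3, 5 and 7, so 10 libraries were compared and no arm and day had a replicate. Nothing in the labels says that infected cells were sorted from uninfected ones, or that the days of an arm came from separate infections. Reads of the endogenous gene and of the transgene cannot be told apart in the table, and the TPM (a level per transcript length, scaled to the same total in every library) of Foxo6 was between 0.61 and 2.29 in OKS + DsRed and between 762 and 1360 in OKS + FoxO6, already 1020 at day 0.

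IGF binding proteins are secreted and hold IGF1 and IGF2 outside the cell. A bound ligand cannot reach its receptor, and proteases that cut the binding protein set it free. The same proteins also carry and store the ligands in blood and matrix, so that a binding protein can restrain or prolong IGF signalling. Fibroblasts are a rich source of several of them, and the liver gene Igfbp1, which is outside the group studied here, is a textbook target of FoxO factors under insulin control. The question asked of the libraries was how the transcripts of the family move when fibroblasts are driven towards pluripotency, and how this differs when FoxO6 is added.

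The 6 genes lie on 4 chromosomes of GRCm38, with coordinates from GENCODE M21, and all are protein coding. Igfbp2 (ENSMUSG00000039323, chr1:72824503-72852474, plus strand) and Igfbp5 (ENSMUSG00000026185, chr1:72857932-72874884, minus strand) face each other tail to tail with 5457 bases between their ends. Igfbp3 (ENSMUSG00000020427, chr11:7206086-7213923, minus strand) faces Igfbp1 (chr11:7197782-7202546, plus strand) in the same way across 3539 bases. Igfbp4 (ENSMUSG00000017493, plus strand) lies far from them at chr11:99041244-99054392. Igfbp6 (ENSMUSG00000023046) lies at chr15:102144362-102149511 on the plus strand and Igfbp7 (ENSMUSG00000036256) at chr5:77349240-77408041 on the minus strand. The principal transcripts hold 4 exons in Igfbp2, Igfbp4, Igfbp5 and Igfbp6, 5 in Igfbp3 and 6 in Igfbp7.

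The 250 bases before the start of the 3 genes that differed between the arms over the course, and those of Igfbp1 for contrast, are shown because a forkhead factor was added. They are RefSeq sequences on GRCm38.p6, written 5' to 3' on the strand of the gene, and capitals mark the letters searched for. These were GTAAACA (the core that forkhead factors bind), CAAAACA (the start of the insulin response element) and TATAAA (the TATA box), each on both strands, and no pair of matches overlapped.
Igfbp2 (chr1:72824230-72824479, plus strand): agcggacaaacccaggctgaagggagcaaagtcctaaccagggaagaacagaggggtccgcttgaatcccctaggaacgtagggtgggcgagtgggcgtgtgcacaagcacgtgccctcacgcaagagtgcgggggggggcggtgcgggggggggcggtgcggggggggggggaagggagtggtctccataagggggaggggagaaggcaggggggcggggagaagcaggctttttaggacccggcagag
Igfbp3 (chr11:7213924-7214173, minus strand): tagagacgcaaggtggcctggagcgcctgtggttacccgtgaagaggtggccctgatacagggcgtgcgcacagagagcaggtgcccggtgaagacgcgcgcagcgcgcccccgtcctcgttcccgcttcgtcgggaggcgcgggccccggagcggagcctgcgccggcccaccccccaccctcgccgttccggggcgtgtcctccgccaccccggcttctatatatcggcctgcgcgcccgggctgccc
Igfbp4 (chr11:99040994-99041243, plus strand): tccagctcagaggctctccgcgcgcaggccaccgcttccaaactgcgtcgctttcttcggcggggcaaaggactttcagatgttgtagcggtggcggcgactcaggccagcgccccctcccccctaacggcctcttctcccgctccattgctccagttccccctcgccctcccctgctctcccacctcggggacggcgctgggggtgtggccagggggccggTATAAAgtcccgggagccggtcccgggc
Igfbp1 (chr11:7197537-7197786, plus strand): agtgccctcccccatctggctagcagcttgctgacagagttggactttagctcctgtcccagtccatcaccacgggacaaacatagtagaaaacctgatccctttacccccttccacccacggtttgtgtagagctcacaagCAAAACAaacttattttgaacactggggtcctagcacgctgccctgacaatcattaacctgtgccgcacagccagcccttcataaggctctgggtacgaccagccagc
In none of the 7 windows of the 6 genes (Igfbp2 has 2 starts) did the forkhead or the insulin response letters occur, while they occurred in 3.17% and 5.56% of all 32851 windows of this length. The window of Igfbp1 held the insulin response letters 108 bases before the start. TATAAA occurred in 12.4% of all windows and was found 28 bases before the start of Igfbp4. It was also found 148 bases before the RefSeq start of Igfbp6, on the opposite strand. The window of Igfbp6 ends at chr15:102144185, upstream of the GENCODE start of the gene at 102144362. The windows of the 6 genes ranged from 49.6% GC in Igfbp6 to 74% in Igfbp7, with 7 to 32 CpG dinucleotides, against medians of 52.4% and 6 over all windows. A match is a description of letters, and windows without one say nothing about binding.

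The libraries held between 1208379 and 2225750 expected counts (estimated reads per gene), with a median of 1601151, and 59 of the 60 values of the 6 genes were whole to within 0.001. The 95% intervals given with a level or a ratio are exact intervals of the read counts and cover counting error only. The libraries were checked with marker genes. All 12 fibroblast markers were measured, and their summed TPM went from 10500 at day 0 to 3070 at day 7 in the control arm and from 9870 to 3330 with FoxO6. Between the arms Dcn (1.15, adjusted p = 0.00831, edgeR) and Pdgfra (0.96, adjusted p = 0.0232) were called higher with FoxO6 and Col3a1 (-0.64, adjusted p = 0.0191) lower. The 6 epithelial markers went from 12.1 to 645 in the control arm and from 3.66 to 140 with FoxO6, and the 3 of them that were tested were called lower with FoxO6. Of the 6 macrophage markers, Ptprc, Csf1r, Adgre1 and Tyrobp had at most 3 counts in every library, as had Emcn of the 6 endothelial markers. The macrophage sum, which came mostly from Cd68 and Lyz2, lay between 14.1 and 55.8 in the control and between 18 and 29 with FoxO6, and Cd68, the only one tested, was not called (-0.51, adjusted p = 0.363). The summed TPM of the smooth muscle and pericyte markers lay between 48.6 and 4550 in the control and between 66.8 and 5060 with FoxO6, highest at day 0, and of the 3 tested Cspg4 was called lower with FoxO6 (-1.20, adjusted p = 0.00454), while Acta2 (0.33, adjusted p = 0.312) and Tagln (0.23, adjusted p = 0.585) did not pass. In bulk RNA, fewer cells of a kind and less RNA in each cell cannot be told apart. The part of these shifts in the results below was not tested.

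The summed TPM of the 6 genes was lower at day 7 than at day 0 in both arms and ended lowest with FoxO6. Over days 0, 1, 3, 5 and 7 the control libraries held 2206, 849, 825, 623 and 806. The FoxO6 libraries held 1818, 513, 265, 233 and 216. The arms were close at day 0 and apart on the 4 later days, where each OKS + FoxO6 library was below all OKS + DsRed libraries. Igfbp3 made up most of the sum in the day 0 libraries, with 66.1% (control) and 59.4% (FoxO6), followed by Igfbp7 with 22.5% and 25.2%. At day 7 the composition had changed differently. In OKS + DsRed, Igfbp3 held 40.7%, Igfbp2 36.8% and Igfbp5 12.1%, and Igfbp7 held 0.726%. In OKS + FoxO6, Igfbp3 held 39.2%, Igfbp6 and Igfbp7 15.7% each, Igfbp4 14.4% and Igfbp2 7.47%.

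**Figure D1:**
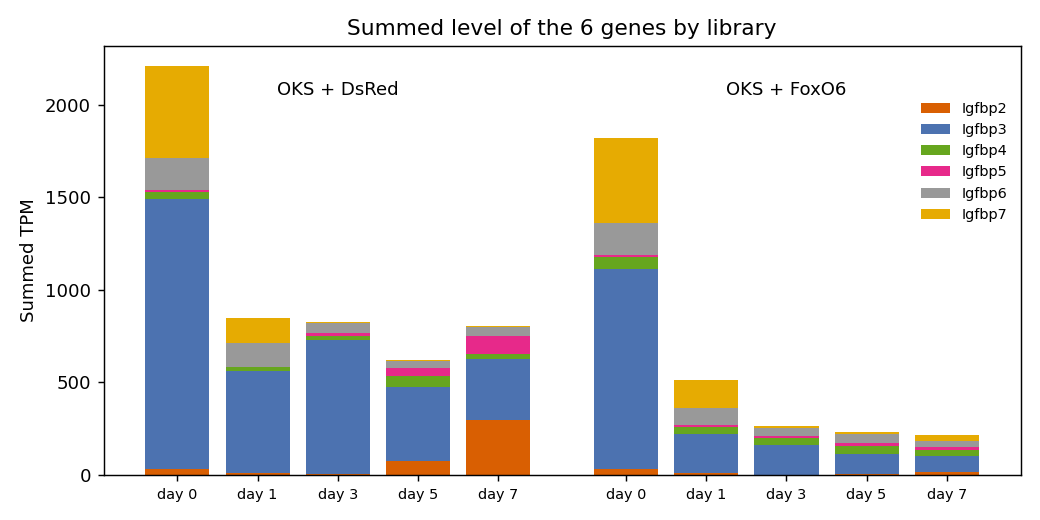
Stacked bars of the TPM of the 6 genes in each of the 10 libraries, by arm and day (y axis, summed TPM from 0). The sum falls after day 0 in both arms, to 806 (OKS + DsRed) and 216 (OKS + FoxO6) at day 7, and the day 7 bar of OKS + DsRed is the one with a large Igfbp2 part (36.8%).

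The arms were compared by the shift that the 5 days share (quasi-likelihood test of edgeR, day entering as a factor, Benjamini-Hochberg adjustment over 10977 genes). Igfbp3 and Igfbp2 were lower in OKS + FoxO6 and Igfbp4 was higher, while Igfbp5, Igfbp6 and Igfbp7 did not pass the threshold of 0.05. Thus 2 of the 6 genes were called lower, against 7.13% of all genes tested, and 1 was called higher, against 6.93%. The median shift of all genes was -0.02 on the log2 scale. The 5 days stand in for replicates, so the test describes these courses and not independent infections. Day by day, a gene was called when its log2(TPM + 1) differed between the arms by more than 1, that is 2-fold, with no replicate check. At day 0, 0 of the 6 genes passed 2-fold, while 10.2% of all genes tested did. At day 1 it was 1 gene (Igfbp3), against 10.1% of all genes. At day 3 there were 4 (Igfbp2, Igfbp3, Igfbp4 and Igfbp7, against 11.9%). At day 5 there were 4 (Igfbp2, Igfbp3, Igfbp5 and Igfbp7, against 13.5%), and the same 4 genes passed at day 7, against 17.5%. On scaled counts Igfbp4 at day 3 was 1.81-fold higher (95% interval 1.21 to 2.76), short of 2-fold. The counting intervals of the ratio included equality for Igfbp2 at day 3 and for Igfbp7 at days 3 and 5. Smaller differences were present at day 0, when Igfbp3 was 1.48-fold lower in OKS + FoxO6 (1.4 to 1.57) and Igfbp7 1.2-fold lower (1.04 to 1.38). For the other genes the counting intervals at day 0 included equality.

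**Figure D2:**
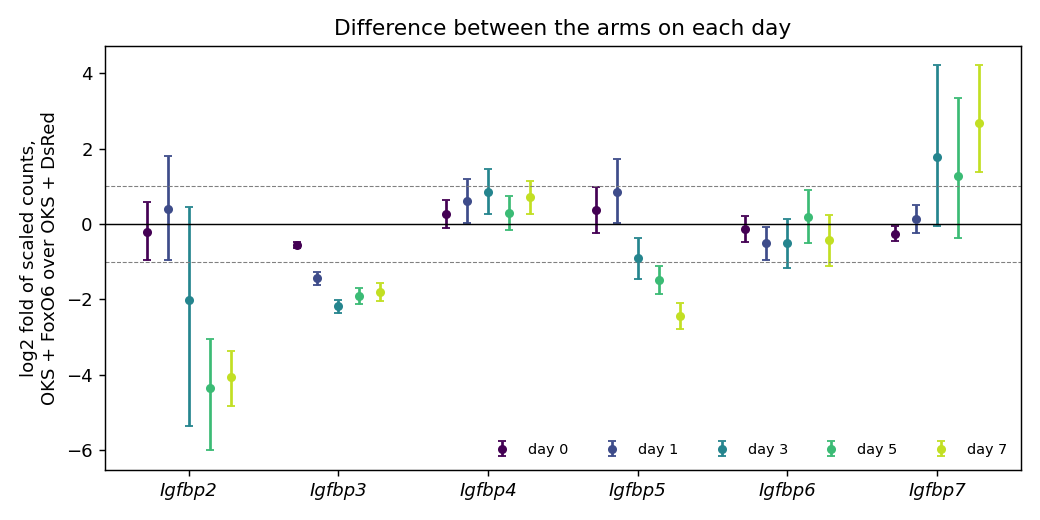
Log2 fold of TMM-scaled counts, OKS + FoxO6 over OKS + DsRed, for the 6 genes (x axis) on each day (colour, left to right from day 0 to day 7), with exact 95% counting intervals as bars and dashed lines at 2-fold. Igfbp3 is below 0 on all 5 days, Igfbp2 and Igfbp5 lie below the lower dashed line at days 5 and 7, and the intervals are widest where few reads remain, for Igfbp2 at day 3 and for Igfbp7 at days 3 and 5.

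Igfbp3, the main carrier of IGFs in serum, which forms a ternary complex with IGF and the acid-labile subunit, had the highest TPM of the 6 genes in all 10 libraries. The control course ran through a TPM of 1459, 552, 724, 395 and 328 on days 0, 1, 3, 5 and 7. With FoxO6 the values were 1080, 210, 161, 109 and 84.6. When the 10 levels were put in order, 8 of 9 neighbouring pairs had counting intervals that were apart, and only days 5 and 7 of OKS + FoxO6 overlapped. OKS + FoxO6 was lower on all 5 days, by 1.48-fold at day 0 (95% interval 1.4 to 1.57 on scaled counts), 2.71-fold at day 1 (2.41 to 3.05), 4.55-fold at day 3 (4.04 to 5.13), 3.77-fold at day 5 and 3.5-fold at day 7 (2.96 to 4.15). The shift over the course was -1.57 in log2 (SE 0.20, adjusted p = 0.000662, edgeR), a 2.98-fold lower level. The call held in 9 of 10 alternatives. Without a day term it did not (-1.12, adjusted p = 0.50).

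Most of the fall of Igfbp3 came in the first day. From day 0 to day 1 it fell 2.96-fold in OKS + DsRed (2.74 to 3.19) and 5.42-fold in OKS + FoxO6 (4.87 to 6.03). From day 1 to day 3 it went up again in OKS + DsRed, 1.29-fold (1.18 to 1.4), and down further in OKS + FoxO6, 1.31-fold (1.13 to 1.51). After day 3 both arms declined, and in OKS + FoxO6 the step from day 5 to day 7 was within counting error (1.06-fold lower, 0.873 to 1.29).

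Igfbp2 binds both IGFs with a preference for IGF2 and is typical of embryonic and epithelial tissues. In the control its TPM ran 31.1, 9.54, 6.6, 77.3 and 296 over the 5 days. In OKS + FoxO6 it ran 29.9, 12.7, 1.65, 5.31 and 16.1, where day 3 rests on 2 reads and day 5 on 5 reads. Both arms first lost the transcript, and only the control libraries of days 5 and 7 rose above the level of day 0. Between the arms the counting intervals included equality at days 0, 1 and 3. On scaled counts the gene was 20.3-fold lower in OKS + FoxO6 at day 5 (8.28 to 64.6) and 16.7-fold lower at day 7 (10.4 to 28.5). The difference in log2(TPM + 1) was -3.63 at day 5, a smaller one, where the effective length of the gene in the FoxO6 library was 928 bases, against 1241 to 1247 in the others, and -4.12 at day 7. The shift over the course was -2.20 in log2 (SE 0.63, adjusted p = 0.0407, edgeR). The call was lost without any one of the 3 late days. Without day 3 the estimate was -2.20 (adjusted p = 0.0899). Without day 5 the estimate was -1.66 (adjusted p = 0.196) and without day 7 it was -1.37 (adjusted p = 0.17). The adjusted p stayed under 0.05 in 4 of 10 alternatives. It ranged from 1.9e-13 in the edgeR fit without a filter on low counts to 0.225 without a day term. The next lowest was 0.00873, without day 0.

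Igfbp5, the tail-to-tail neighbour of Igfbp2, binds IGFs and extracellular matrix and can form the ternary complex as Igfbp3 does. The control libraries gave a TPM of 8.6, 4.22, 15.9, 45.3 and 97.3 in day order. In OKS + FoxO6 these were 12.2, 7.77, 8.63, 16.6 and 16.3. On scaled counts Igfbp5 was 1.29-fold higher in OKS + FoxO6 at day 0, where the interval included equality (0.848 to 1.99). It was 1.81-fold higher at day 1 (1.02 to 3.33) and lower on the 3 later days. Its rise in the control course came in every step after day 1, by 3.74-fold (2.22 to 6.58), 2.85-fold (2.15 to 3.81) and 2.27-fold (1.92 to 2.7). With FoxO6 the only step up outside counting error was that from day 3 to day 5, 1.9-fold (1.34 to 2.73). At day 5 it was 2.8-fold lower in OKS + FoxO6 (2.18 to 3.61) and at day 7 5.4-fold lower (4.3 to 6.85). The shift over the 5 days, which differ in sign between early and late, did not pass (-0.95, SE 0.38, adjusted p = 0.13, edgeR). It passed in 2 of 10 alternatives, 1 of them the fit without day 0 (-1.26, adjusted p = 0.0494). Without day 5 the shift was -0.74 (adjusted p = 0.416) and without day 7 it was -0.50 (adjusted p = 0.344).

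Igfbp2 and Igfbp5 were thus the genes of the family that increased in the control course. Over the 10 libraries their log2(TPM + 1) had a Pearson r of 0.75, which is a description over libraries that share the day order and the arms. The 3 epithelial markers that were tested, Cdh1, Epcam and Krt8, rose over the days as well, and the summed TPM of the 6 epithelial markers ran 12.1, 20, 92.7, 279 and 645 over the control days. With FoxO6 it ran 3.66, 13.7, 15.6, 56.8 and 140. The part of the epithelial shift in the rise of Igfbp2 and Igfbp5 was not tested.

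**Figure D3:**
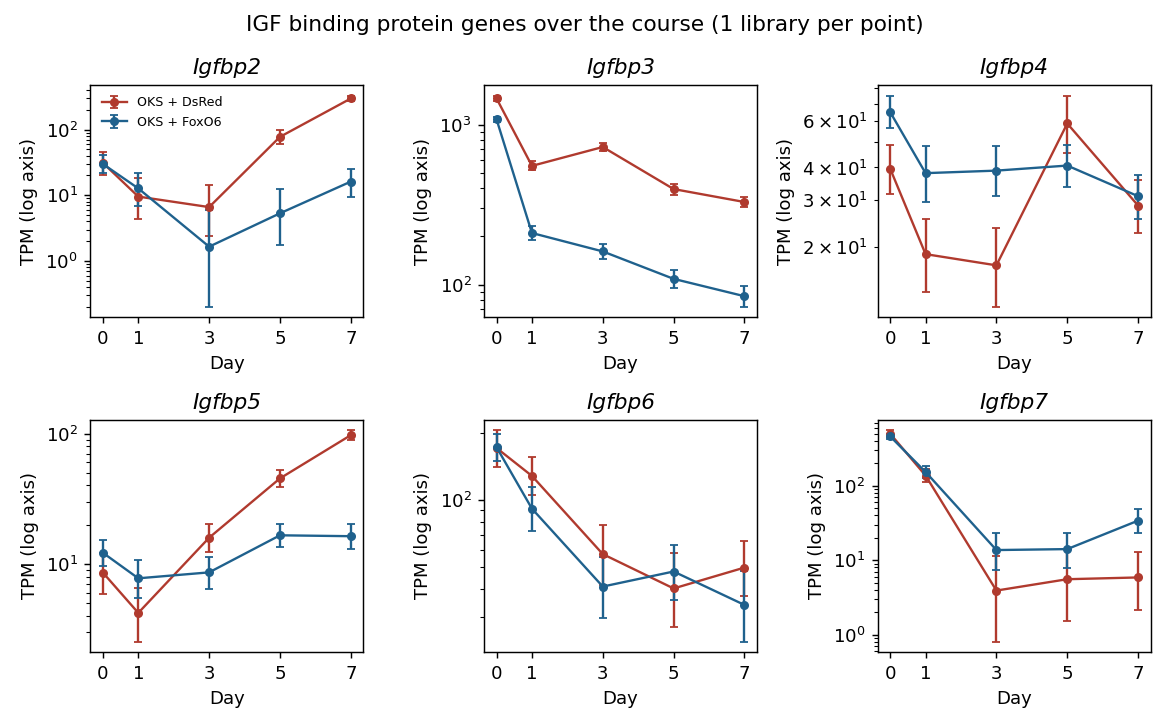
TPM of each of the 6 genes (log axis) against day in OKS + DsRed (red) and OKS + FoxO6 (blue), 1 library per point, with exact 95% counting intervals as bars. Igfbp2 and Igfbp5 climb to 296 and 97.3 in OKS + DsRed alone, Igfbp3 runs lower in OKS + FoxO6 throughout, and Igfbp7 falls in both arms to between 3.9 and 33.9 from day 3 on.

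Igfbp4 mostly restrains IGF action and is cut by the protease encoded by Pappa. The control libraries gave a TPM of 39.6, 18.7, 17, 58.8 and 28.6 from day 0 to day 7. The FoxO6 libraries gave 65, 38.1, 38.9, 40.7 and 31.1. The gene was higher in OKS + FoxO6 on 4 of the 5 days, with only day 5 in the other order. For the control library of day 5 the deposited effective length of the gene, by which TPM divides, was 1590 bases, against 2204 to 3770 in the others. On scaled counts, which ignore length, Igfbp4 was higher in OKS + FoxO6 on all 5 days, by 1.2-fold at day 0 (0.929 to 1.56) up to 1.81-fold at day 3 (1.21 to 2.76), and by 1.23-fold at day 5 (0.9 to 1.69). The shift over the course was 0.53 in log2 (SE 0.15, adjusted p = 0.0376, edgeR), or 1.44-fold. Only 3 of 10 alternatives kept this call, and with an offset for effective length it was 0.46 (adjusted p = 0.277). No neighbours in the order of its 10 levels were apart by their counting intervals.

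Igfbp7, which binds IGFs weakly and is deposited in matrix and vessels, had the largest fall in fold of the 6 in OKS + DsRed from day 0 to day 7. In OKS + FoxO6 its fall of 12-fold (8.39 to 17.7) and the 11.3-fold fall of Igfbp3 (9.7 to 13.2) had overlapping intervals. In the control the TPM of Igfbp7 went from 497 at day 0 through 136 to 3.9, 5.54 and 5.85, the last 3 from 3, 4 and 6 reads. With FoxO6 the values were 458, 152, 13.6, 14 and 33.9, the last 3 from 14, 15 and 32 reads. At day 0 it was 1.2-fold lower with FoxO6 (1.04 to 1.38), at day 1 the interval included equality, and from day 3 on every OKS + FoxO6 library was above every OKS + DsRed library. At days 3 and 5 the counting intervals of the ratio included equality (3.44-fold, 0.959 to 18.6, and 2.44-fold, 0.776 to 10.1), while at day 7 the gene was 6.36-fold higher in OKS + FoxO6 (2.62 to 18.6). Within OKS + FoxO6 it rose 2.89-fold from day 5 to day 7 (1.52 to 5.74). Its shift over the 5 days was 0.48 (SE 0.33, adjusted p = 0.381, edgeR), from 0.11 without day 7 to 1.04 without day 0, and DESeq2 gave 0.95, with no call in any alternative. The summed TPM of the 6 endothelial markers lay between 20.8 and 54.8 in the control and between 32 and 143 with FoxO6, and rested on Tek and Kdr, which were called higher. The others were too low to be tested, with a TPM of at most 1.24 for Cdh5, 1.58 for Tie1 and 0.26 for Emcn, and Pecam1 had 5.73 in the control and 0.76 with FoxO6 at day 7. Their part in the level of Igfbp7 was not tested.

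Igfbp6, which prefers IGF2, did not pass any rule between the arms. The control libraries gave a TPM of 171, 128, 57.4, 40.3 and 49.9. The FoxO6 libraries gave 172, 91.5, 41.1, 48 and 34. The gene passed 2-fold on 0 of the 5 days, and the shift was -0.28 (SE 0.16, adjusted p = 0.292, edgeR). Only at day 1 did the counting interval leave out equality, with 1.42-fold less in OKS + FoxO6 (1.05 to 1.93).

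The change over the course that both arms share was measured with day as a number (quasi-likelihood test of edgeR, arm entering as a factor). Igfbp3, Igfbp6 and Igfbp7 fell and Igfbp5 rose. Those are 3 of the 6 genes falling, against 10.1% of all genes tested, and 1 rising, against 9.93%. The slope was -0.79 log2 units per day for Igfbp7 (SE 0.15, adjusted p = 0.00325), -0.37 for Igfbp3 (0.07, adjusted p = 0.00365), -0.29 for Igfbp6 (0.05, adjusted p = 0.0019) and 0.36 for Igfbp5 (0.08, adjusted p = 0.01). The size depended on the days, with -1.37 for Igfbp7 without day 7 and -0.17 for Igfbp3 without day 0. These calls held in all 10 alternatives for Igfbp3, Igfbp6 and Igfbp7 and in 9 of 10 for Igfbp5, whose adjusted p was 0.0635 without day 7. Igfbp2 (0.29, adjusted p = 0.237) first fell and then rose, and without day 0 its slope was 0.70 (adjusted p = 0.0145). Igfbp4 had a slope of -0.04 (adjusted p = 0.685), and without day 0 one of 0.13 (adjusted p = 0.0471).

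From day 0 to day 7 of OKS + DsRed, 2 of the 6 genes were more than 2-fold higher in log2(TPM + 1), against 15.7% of all genes, and 3 were more than 2-fold lower, against 9.29%. Igfbp5 gained 10.5-fold on scaled counts (7.37 to 15.4) and Igfbp2 8.86-fold (5.9 to 13.9). Igfbp7 lost 91.6-fold (41.6 to 251), Igfbp3 4.78-fold (4.39 to 5.2) and Igfbp6 3.69-fold (2.63 to 5.23). In OKS + FoxO6, 0 of the 6 were more than 2-fold higher, against 9.92% of all genes, and 4 were more than 2-fold lower, against 14.8%. Here Igfbp7 lost 12-fold (8.39 to 17.7), Igfbp3 11.3-fold (9.7 to 13.2) and Igfbp6 4.49-fold (3.08 to 6.74), while Igfbp4 passed 2-fold on TPM and fell 1.38-fold on scaled counts (1.09 to 1.77). Igfbp5 gained 1.51-fold (1.1 to 2.07), and the change of Igfbp2 was within counting error (1.64-fold lower, 0.923 to 3.04).

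Whether the slopes differ between the arms was tested with an arm by day term (edgeR). It called 0 of the 6 genes and 0% of all genes tested. At an unadjusted p under 0.05 it held 954 genes (8.69%), among them 2 of the 6, and DESeq2 called 26 genes. The estimate for Igfbp5 was -0.45 log2 units per day, OKS + FoxO6 minus OKS + DsRed (SE 0.11, adjusted p = 0.37), and that for Igfbp2 was -0.74 (SE 0.26, adjusted p = 0.504). Igfbp7 had 0.61 (SE 0.34, adjusted p = 0.633). A difference in slope between the arms was therefore not shown for any of the 6 genes.

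The rest of the IGF pathway was taken from lists of 43 genes, which include 14 that share the IGF binding protein domain and are not all known to act on IGFs, and 27 were tested. In the shift between the arms 10 of these were higher in OKS + FoxO6 and 0 lower, against 6.93% and 7.13% of all genes tested (2 of the 10, Ctgf and Crim1, are domain genes), and their median was 0.25, against -0.02 over all genes. Among the ligands, Igf2 ran through a TPM of 1170, 496, 79.5, 33.5 and 11.4 in the control. With FoxO6 it ran through 1440, 644, 171, 83.2 and 71.1. Over the days it fell, with a slope of -0.76 per day (adjusted p = 5.5e-05), and every FoxO6 library lay above the control of its day (shift 1.04, SE 0.25, adjusted p = 0.0185, edgeR). Igf1 had too few reads to be tested, at most 44 in a library, and its TPM went from 20.6 to 0.66 in the control and from 23 to 0.64 with FoxO6. Ins1 and Ins2 had 0 counts in every library. Igfals, the acid-labile subunit, had at most 1 count. Igfbp1 had at most 2 counts, which is under the limit of 3 counts used here, so no change of it was detectable in either arm.

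Of the 3 receptors tested, the signalling receptors Igf1r and Insr were higher in OKS + FoxO6. Igf1r gave a TPM of 17.9, 31.1, 41.9, 25.2 and 20.3 in the control against 40.9, 57.3, 73.6, 76.7 and 45.7 with FoxO6, and was higher on every day (1.14, SE 0.12, adjusted p = 0.000222, edgeR). The insulin receptor Insr gave 4.72, 13.1, 16.5, 17.8 and 8.85 against 14.4, 21, 19.9, 23.1 and 8.17, higher with FoxO6 on 4 days (0.59, SE 0.16, adjusted p = 0.0304). Igf2r, which clears IGF2 and sorts lysosomal enzymes, did not pass (0.25, adjusted p = 0.314). Of the 6 adaptors tested, 1 was called higher, against 6.93% of all genes, and their median of -0.03 was next to that of all genes (-0.02). It was Irs1, the insulin receptor substrate (0.68, SE 0.15, adjusted p = 0.013).

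**Figure D4:**
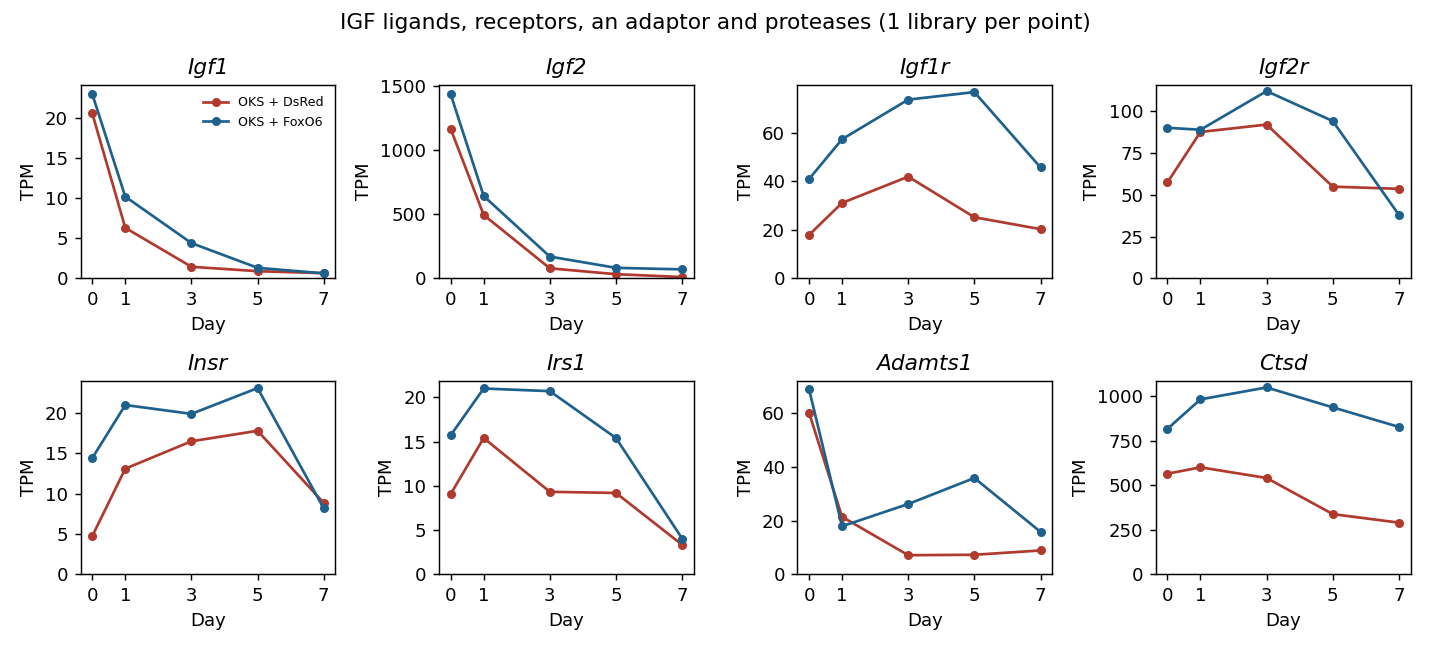
TPM against day (linear axes from 0) of the ligands Igf1 and Igf2, the receptors Igf1r, Igf2r and Insr, the adaptor Irs1 and the proteases Adamts1 and Ctsd in OKS + DsRed (red) and OKS + FoxO6 (blue), 1 library per point. Igf1r and Ctsd lie higher in OKS + FoxO6 on all 5 days, and Igf1 and Igf2 decline in both arms.

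Among proteases that cut IGF binding proteins and their inhibitors, 10 of 14 genes were tested, and 4 were higher in OKS + FoxO6 and 0 lower (6.93% and 7.13% over all genes). Ctsd, a lysosomal protease, gave a TPM of 565, 601, 541, 338 and 290 in the control against 817, 983, 1050, 938 and 828 with FoxO6 (1.02, SE 0.17, adjusted p = 0.00336, edgeR). Adamts1 (1.00, adjusted p = 0.0425), Mmp2 (0.81, adjusted p = 0.0482) and Adam9 (0.52, adjusted p = 0.0302), 3 metalloproteinases, were also called. Pappa and its homologue Pappa2 were too low to be tested, with a TPM of at most 5.04 and 4.53.

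The 3 genes whose log2(TPM + 1) followed each binding protein most closely over the 10 libraries are given as a description, since all libraries share the day order and the arms. Igfbp6 was closest to Col1a1, which encodes type I collagen (Pearson r = 0.981), Rps6ka4 (0.975) and Chpf (0.973). Igfbp3 was closest to Fhl1 (0.971), Jun (0.96) and Fbln2 (0.958). For Igfbp5 these were Gm17167 (0.973), the class I histocompatibility gene H2-Q7 (0.963), whose reads can be shared with close copies, and Cmah (0.956). For Igfbp2 they were Mif (0.957), Eif2s2 (0.955) and Ror2 (0.953). Igfbp7 was closest to Dcun1d5 (0.962), Gfpt2 (0.959) and 2700060E02Rik (0.958), and Igfbp4 to Cebpb (0.873), Mtpap (0.872) and Tdp2 (0.872). Within the family the closest pair was Igfbp6 and Igfbp7 (0.87), followed by Igfbp3 and Igfbp6 (0.77) and by Igfbp2 and Igfbp5 (0.75), and the lowest was Igfbp5 and Igfbp7 (-0.64).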

How the data were processed

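Bulk RNA-seq of MEFs was deposited for 2 arms and 5 days, with 1 library per arm and day. Reads had been assigned by the authors to GENCODE M13 genes (GRCm38) by RSEM on bowtie2 alignments, with versions not given in the sources used here. The deposited values were expected counts, which are not normalized, together with TPM and effective lengths for each library. The methods name a TruSeq kit and the labels a VAHTS kit. The 6 genes and the lists were chosen with earlier results of these data known. Arms and days come from the sample titles. Expected counts were equal to within 0.01 for the 48476 genes of both kinds of table, and the 2124 other genes (at most 0.312% of a library) were not used.

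Expected counts were rounded and fitted with edgeR 4.0.16 in R 4.3.3 (TMM, filterByExpr by arm, quasi-likelihood test, Benjamini-Hochberg adjustment, threshold 0.05). The standard error (SE) is the estimate divided by the root of the F statistic. The fits were checked on simulated counts. Levels are TPM, and differences on a day are in log2(TPM + 1), with a pseudocount of 1. Ratios use TMM-scaled counts with exact binomial 95% intervals, and levels exact Poisson intervals, from Python 3.11.15 with scipy 1.17.1. Named were all 6 genes, genes of the pathway and domain lists past the threshold of the arm shift, the ligands Igf1 and Igf2, the receptors, Igfbp1 and the 3 most similar genes for each. Other listed genes that are named, such as Pappa, Cyr61, Wisp1 and the markers, were chosen after their values were seen. Alternatives were DESeq2 1.42.0, other size factors, no filter, a length offset, each day left out, another day term, a pseudocount of 0.1, CPM with a prior count of 2 and a filter at a mean TPM of 5. Expression at this depth of 1208379 to 2225750 counts is imprecise for genes with few reads.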

Additional observations from a re-analysis of the deposited data

Results flagged for a closer look

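The estimates for Igfbp2 from day 0 to day 7 had different signs, 3.21 on the log2(TPM + 1) scale in the control arm (OKS + DsRed) and -0.85 with FoxO6, with 1 library at each end of each arm. It was picked out because of these signs. On scaled counts the control value was 8.86-fold higher (95% counting interval 5.9 to 13.9), while the FoxO6 value was 1.64-fold lower with an interval that included equality (0.923 to 3.04), so no decrease was shown. The difference of these values has no replicate check, and the arm by day term over all 5 days did not pass (-0.74 log2 units per day, SE 0.26, adjusted p = 0.504, edgeR).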

How the results depend on the processing

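For the shift between the arms, 43 of the 60 values of single binding proteins under the alternatives kept direction and side of the threshold, and 14 lost the call. Igfbp5, Igfbp6 and Igfbp7 had no call to lose. The calls of Igfbp2, Igfbp3 and Igfbp4 held in 4, 9 and 3 of 10 alternatives. DESeq2 gave -2.06 for Igfbp2 (adjusted p = 0.107) and 0.52 for Igfbp4 (0.118), and the length offset -2.07 (0.0685) and 0.46 (0.277). Without the day term 168 genes were called in place of 1544, with -2.72 for Igfbp2, -1.12 for Igfbp3, 0.49 for Igfbp4 and a reversed -0.04 for Igfbp7. Without the filter Igfbp5 passed at -0.91. Leaving out each day gave 663 (without day 5; 705 without day 3) to 1569 calls, -3.04 to -1.37 for Igfbp2, 0.47 to 0.61 for Igfbp4 and -1.26 to -0.50 for Igfbp5. For the shared slope, leaving out each day gave 1287 (without day 5) to 2060 calls in place of 2204, and reversed Igfbp2 (-0.03 to 0.70) and Igfbp4 (-0.11 to 0.13). For the difference of slopes, 6 genes passed without the filter, 26 with DESeq2 and 0 or 1 with a day left out. Uncalled estimates near 0 reversed there, for Igfbp4 (-0.13 with the length offset, -0.01 to 0.05 with a day left out) and Igfbp6 (-0.04 to 0.07). Genes past 2-fold without a filter were 3561, 3724, 4189, 4588 and 5079 on the 5 days, 6386 from day 0 to day 7 in OKS + DsRed and 5874 in OKS + FoxO6, since 22782 genes with any count then enter. The cause of the other changes was not tested. With 1 library per arm and day, no paired analysis of replicates was possible because there are none, and genes with under 10 reads are limited by depth.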

Other observations

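Other genes that encode an IGF binding protein domain, the CCN genes among them, are part of the 43 listed genes counted in the report. Of these 14, 8 were tested, 2 were higher in OKS + FoxO6 and 0 lower, against 6.93% and 7.13% of all genes tested, and 6 fell over the days, against 10.1%. Ctgf, a matrix-associated CCN protein, gave a TPM of 299, 46.4, 38.7, 36.2 and 64.6 from day 0 to day 7 in the control against 469, 105, 199, 160 and 150 with FoxO6, higher on all 5 days (shift 1.40 in log2, SE 0.24, adjusted p = 0.00327, edgeR). Crim1, a membrane protein that binds growth factors of the BMP family, gave 24.5, 19.6, 15.5, 9.1 and 7.97 against 54.2, 43, 45, 35.3 and 18.3 (1.35, SE 0.15, adjusted p = 0.00034). Cyr61, the CCN gene next in level, had 0.36 (adjusted p = 0.439). Wisp1, another CCN gene, fell over the days, with a slope of -0.72 log2 units per day (adjusted p = 0.000173).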
